A study of Mus musculus with 10 samples.

Results

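The transcripts of 8 pluripotency genes of germ cells, Pou5f1, Nanog, Sox2, Dppa3, Dppa5a, Dppa4, Utf1 and Zfp42, were followed through the development of the mouse testis before birth. These genes were chosen by name, with earlier results of these data known, and they are 8 of the 18193 genes with a probe set of their own on the array. Total RNA of embryonic testis was hybridised to Affymetrix Mouse430_2 arrays at embryonic days (E) between the onset of testis formation and birth: E11.5 and E12.5, then E14.5 and E16.5, and last E18.5. Each stage had 2 arrays from independent preparations, which makes 10 arrays in all. The labels name no treatment and no genetic change, and the strain, the number of embryos in a preparation and the handling of the mesonephros, the tissue attached to the gonad, are not stated in the sources used here. The comparisons ask at which stage each transcript was lost, taking the mean of E11.5 and E12.5, called the early mean below, as the starting level.

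Primordial germ cells settle in the gonad and divide there while still using much of the transcription factor network of pluripotent stem cells. In a testis they then stop dividing, become prospermatogonia and are known to turn that network off while male germ cell genes come on. POU5F1 (OCT4), SOX2 and NANOG are the core transcription factors of the network, and POU5F1 and SOX2 bind neighbouring octamer and Sox sequences. UTF1 and ZFP42 (REX1) are nuclear proteins found in stem cells and germ cells, and the Dppa genes were named for their high expression in pluripotent cells.

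Values are deposited signals, that is, 1 linear intensity per probe set and array. Changes were tested with limma on log2(signal + 16), with adjustment over the 10916 genes that passed a filter on mean signal at 49.1, and a change was called at an adjusted p under 0.05. All 8 genes passed this filter. All folds were computed from log2(signal + 16), so changes of dim genes are understated. Percentages of the early mean were computed from the signals without the added 16. A percentage and a fold given for the same change therefore differ, most for dim genes. In a whole testis a fall can come from fewer germ cells among all cells or from less RNA in each germ cell, and these cannot be told apart. Levels of different genes come from different probe sets and are not set against each other.

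Over the 5 stages all 8 genes changed by the moderated F test, which called 34.7% of all tested genes. Against the early mean, 7 of the 8 had fallen by E18.5, when 13.7% of tested genes were called lower, and Dppa4 was the exception. The stage at which a transcript was first called lower, and stayed so, differed between the genes, though this stage is not a test between genes. It was E14.5 for Sox2 (a call that several settings ended), E16.5 for Pou5f1, Nanog, Dppa3, Dppa5a and Zfp42, and E18.5 for Utf1. At E16.5, 6 genes were lower than the early mean and 1, Dppa4, was higher, against 13.5% of tested genes called lower and 21% called higher. The median log2 change of the 8 genes was -1.76 at E16.5 and -2.01 at E18.5, while the median over all tested genes was 0.05 at E16.5 and 0.03 at E18.5.

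**Figure D1:**
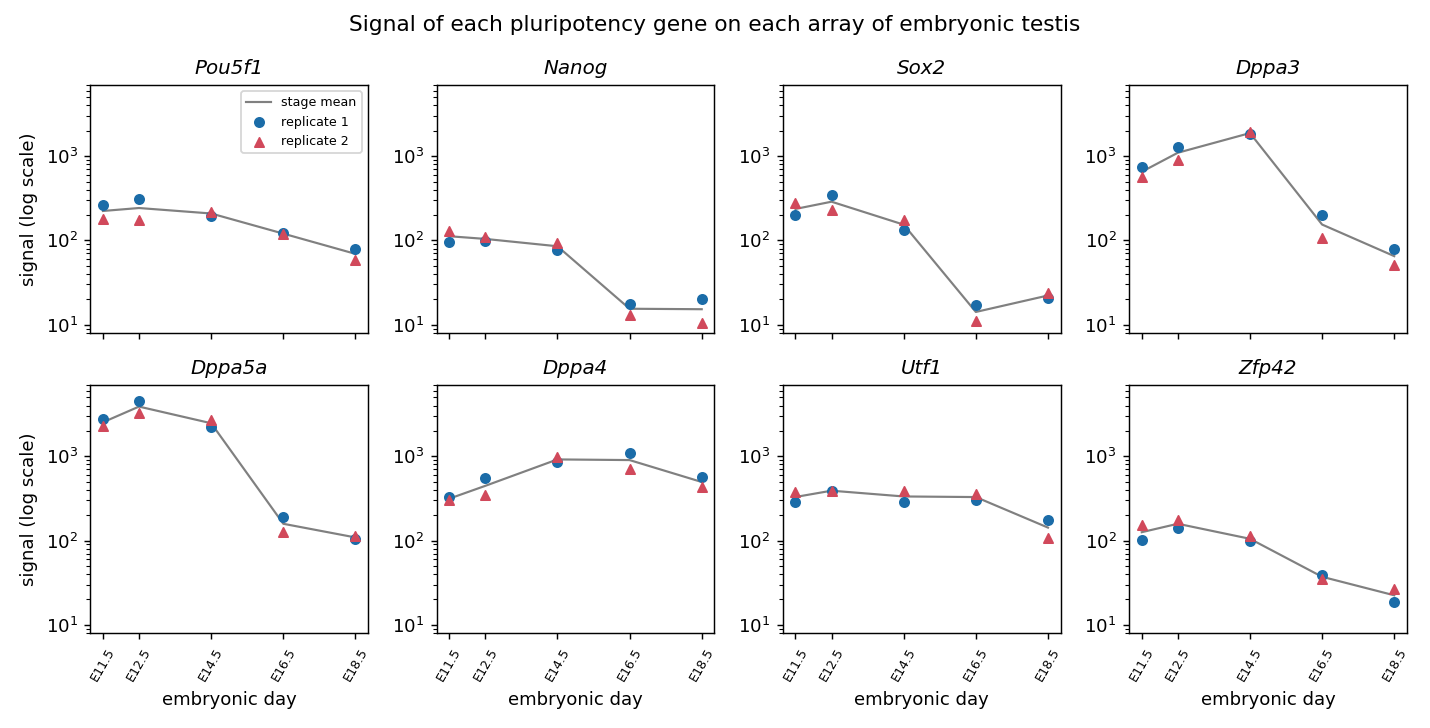
Signal of each gene on each array (vertical axis, log scale) against embryonic day, with a point per array and a line through the stage means. Nanog, Sox2 and Dppa5a drop between E14.5 and E16.5, Dppa3 peaks at E14.5 before its drop, Dppa4 stays above its E11.5 arrays and Utf1 is lowest on the E18.5 arrays.

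The promoters of 5 of the 8 genes were found in the RefSeq promoter table of assembly GRCm38.p6, and they are shown because POU5F1 and SOX2, members themselves of the group, are known to bind octamer and Sox sequences. Each run covers 250 bases before to 50 bases after the annotated transcript start, read along the gene. Capitals mark the octamer core ATGCAAA and the Sox core ACAATG, searched on both strands, so that a match to the other strand appears as TTTGCAT or CATTGT. The windows are chr6:122707239-122707538 (plus strand) for Nanog, chr3:34649745-34650044 (plus) for Sox2, chr8:43306960-43307259 (minus) for Zfp42, chr17:35505782-35506081 (plus) for Pou5f1 and chr7:139943606-139943905 (plus) for Utf1.
Nanog: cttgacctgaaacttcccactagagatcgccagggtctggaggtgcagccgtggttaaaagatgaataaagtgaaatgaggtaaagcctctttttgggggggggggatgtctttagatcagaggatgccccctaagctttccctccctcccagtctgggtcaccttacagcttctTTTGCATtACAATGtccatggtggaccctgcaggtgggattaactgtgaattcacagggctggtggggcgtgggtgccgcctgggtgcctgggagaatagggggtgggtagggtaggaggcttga
Sox2: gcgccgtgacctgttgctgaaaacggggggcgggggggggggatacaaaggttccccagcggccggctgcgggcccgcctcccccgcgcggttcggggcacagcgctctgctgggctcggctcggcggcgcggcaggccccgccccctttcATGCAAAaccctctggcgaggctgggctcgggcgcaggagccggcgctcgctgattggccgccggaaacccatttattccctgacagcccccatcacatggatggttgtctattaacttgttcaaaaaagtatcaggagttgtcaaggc
Zfp42: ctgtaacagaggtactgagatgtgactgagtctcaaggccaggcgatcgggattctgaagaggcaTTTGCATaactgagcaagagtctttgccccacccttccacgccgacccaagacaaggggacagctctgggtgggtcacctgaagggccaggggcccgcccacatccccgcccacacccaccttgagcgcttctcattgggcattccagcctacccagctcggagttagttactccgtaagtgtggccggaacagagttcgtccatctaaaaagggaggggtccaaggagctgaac
Pou5f1: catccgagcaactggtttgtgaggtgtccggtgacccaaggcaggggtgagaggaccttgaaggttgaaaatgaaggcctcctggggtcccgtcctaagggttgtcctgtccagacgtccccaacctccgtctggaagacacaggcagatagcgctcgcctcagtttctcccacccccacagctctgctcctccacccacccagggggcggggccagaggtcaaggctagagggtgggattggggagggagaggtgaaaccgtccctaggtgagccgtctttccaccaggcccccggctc
Utf1: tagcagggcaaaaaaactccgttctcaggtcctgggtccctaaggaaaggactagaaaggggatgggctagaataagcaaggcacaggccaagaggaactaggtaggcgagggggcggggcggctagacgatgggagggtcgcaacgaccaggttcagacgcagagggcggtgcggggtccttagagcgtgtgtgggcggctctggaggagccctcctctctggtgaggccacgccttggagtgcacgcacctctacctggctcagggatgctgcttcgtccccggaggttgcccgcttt

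Nanog held an octamer core at positions -75 to -69 from the start and a Sox core at -67 to -62, so the pair lay next to each other. Sox2 held an octamer core at -99 to -93 and Zfp42 one at -185 to -179. The Pou5f1 and Utf1 windows shown held neither. A second annotated start of Nanog, with an overlapping window, gave the same pair, and a second start of Pou5f1 had a Sox core at -158 to -153. Of the 32851 promoters of this length in the table, 4.63% held the octamer core and 12.57% the Sox core. A match is a description of the letters and not a bound site, and the search covered only these windows. The windows shown held 4 CpG for Nanog, 27 for Sox2, 11 for Zfp42, 11 for Pou5f1 and 17 for Utf1, while the median of all promoters was 7. Dppa3, Dppa4 and Dppa5a are named without a sequence.

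Sox2, an HMG-box factor and partner of POU5F1, was the first of the 8 to be called lower. Its signal was 197.7 and 274.7 on the E11.5 arrays, 344.5 and 231.4 on those of E12.5, 132.9 and 174.8 on those of E14.5, 17.1 and 11.2 on those of E16.5 and 20.5 and 23.9 on those of E18.5. Both E14.5 arrays lay below all 4 early arrays, and the 4 late arrays lay far below those. At E14.5 Sox2 stood at 58.7% ± 11.3 of its early mean (SD, n = 2), a log2 change of -0.69 (adjusted p = 0.0392). At E14.5, 5.63% of tested genes were called lower than the early mean, and Sox2 was 1 of the 8.

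The E14.5 call of Sox2 was also not stable. It was lost without either E14.5 array, with an adjusted p of 0.329 without replicate 1 and 0.0505 without replicate 2, and likewise without E11.5 replicate 2 (0.0755) and when E12.5 replicate 1 was left out (0.137). It was also lost with a pseudocount of 1 (0.0698) and without the filter on signal (0.0782). Against E12.5 alone, the E14.5 change of -0.83 missed the threshold (adjusted p = 0.0618). The fall at E16.5 was larger and held in every setting that tested it: Sox2 fell to 5.40% ± 1.59 of the early mean (SD, n = 2), 9.09-fold (adjusted p = 9.11e-08). From E14.5 to E16.5 alone it fell 5.62-fold (adjusted p = 5.15e-05). Pseudocounts of 1 and 64 put the log2 change of that step at -3.37 and -1.47.

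Nanog, the homeodomain factor of the core network, was first called lower at E16.5. The arrays gave signals of 96.3 and 127.9 on the E11.5 arrays, 98.8 and 109.5 on those of E12.5, 77.9 and 92.5 on those of E14.5, 17.8 and 13.1 on those of E16.5 and 20.1 and 10.4 on those of E18.5. Both E14.5 arrays lay below all 4 early arrays by a small margin, and the 4 late arrays did not overlap any earlier one. The E14.5 mean was 78.8% ± 9.55 of the early mean (SD, n = 2), and that difference was not called (log2 change -0.29, 95% interval -0.75 to 0.17, adjusted p = 0.39). At E16.5 Nanog was at 14.3% ± 3.07 of the early mean (SD, n = 2) and 3.22-fold lower than at E14.5 (adjusted p = 0.00133). At E18.5 it was at 14.1% ± 6.34 (SD, n = 2), and the log2 difference from E16.5 was -0.02 with a 95% interval of -0.56 to 0.51. The late signals of Nanog and Sox2 lay under the filter signal of 49.1.

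Pou5f1, which encodes the POU factor at the centre of the network, was called lower at E16.5 and E18.5. It had signals of 266.6 and 180.4 on the E11.5 arrays, 309.2 and 175.4 on those of E12.5, 197.4 and 219.9 on those of E14.5, 121.5 and 119.2 on those of E16.5 and 79.4 and 59.0 on those of E18.5. The early and E14.5 arrays overlapped, both E16.5 arrays lay below them, and both E18.5 arrays lay lower again. Relative to its early mean, Pou5f1 was at 89.6% ± 6.83 by E14.5, 51.7% ± 0.698 by E16.5 and 29.7% ± 6.19 by E18.5 (SD, n = 2 each). The E16.5 fall from the early mean was 1.78-fold (adjusted p = 0.00863) and the E18.5 fall 2.87-fold (adjusted p = 0.000117). Neither single step reached the threshold, with a log2 change of -0.72 for E16.5 against E14.5 (95% interval -1.25 to -0.19, adjusted p = 0.0786) and -0.69 for E18.5 against E16.5 (adjusted p = 0.758).

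The E16.5 call of Pou5f1 was lost when either E16.5 array was left out, with an adjusted p of 0.0539 without replicate 1 and 0.0749 without replicate 2. The step from E14.5 was called with the replicate number as a block (adjusted p = 0.0329), without either E12.5 array (0.0468 without replicate 1 and 0.0456 without replicate 2) and with only the arrays of the 2 stages in the fit (0.0184).

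Zfp42, a zinc finger gene used as a marker of naive pluripotency, was also first called lower at E16.5. Its signal was 100.3 and 151.0 on the E11.5 arrays, 142.2 and 174.2 on those of E12.5, 97.6 and 112.2 on those of E14.5, 39.4 and 34.9 on those of E16.5 and 19 and 26 (rounded) on those of E18.5. The E14.5 arrays overlapped those of E11.5, and each later pair lay below every earlier array. Relative to its early mean, Zfp42 was at 73.9% ± 7.27 by E14.5, 26.2% ± 2.24 by E16.5 and 15.8% ± 3.89 by E18.5 (SD, n = 2 each). The fall between E14.5 and E16.5 was 2.27-fold (adjusted p = 0.00625). This call was lost without E16.5 replicate 2 (adjusted p = 0.0817). The fall from the early mean was 2.93-fold at E16.5 (adjusted p = 5.27e-05) and 4.07-fold at E18.5 (adjusted p = 4.36e-06).

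Dppa5a, which encodes a KH-domain protein of the stem cell and germ cell lineages, had the largest fold fall of the 8 genes. The arrays gave signals of 2767.7 and 2296.5 on the E11.5 arrays, 4483.4 and 3295.2 on those of E12.5, 2232.2 and 2703.5 on those of E14.5, 191.3 and 125.0 on those of E16.5 and 105.7 and 112.0 on those of E18.5. The E14.5 arrays lay within the range of the E11.5 arrays or just below it, and the 4 late arrays were all far under every earlier one. From E14.5 to E16.5 the log2 change of Dppa5a was -3.85 ± 0.22 (SE, adjusted p = 4.59e-07). It was at 4.93% ± 1.46 of its early mean at E16.5 and 3.39% ± 0.139 at E18.5 (SD, n = 2 each), a fall of 25.1-fold by the last stage (adjusted p = 8.11e-10).

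Dppa3 (Stella), which protects maternal methylation in the early embryo and marks primordial germ cells, first went up. It had signals of 733.7 and 570.4 on the E11.5 arrays, 1294.1 and 899.9 on those of E12.5, 1814.1 and 1942.5 on those of E14.5, 200.7 and 107.8 on those of E16.5 and 79.4 and 50.7 on those of E18.5. Each stage up to E14.5 lay wholly above the one before, both E16.5 arrays lay below every earlier array, and both E18.5 arrays lay lower again. At E14.5 Dppa3 stood at 215% ± 10.4 of the early mean (SD, n = 2), a rise of 2.22-fold (adjusted p = 0.00499). At that stage 8.72% of tested genes were called higher, and Dppa3 and Dppa4 were 2 of the 8. Dppa3 then fell 11.6-fold from E14.5 to E16.5 (adjusted p = 5.17e-06), to 17.6% ± 7.51 of the early mean, and was at 7.44% ± 2.32 at E18.5 (SD, n = 2 each), 10.7-fold below the early mean (adjusted p = 1.16e-07).

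Dppa4, which encodes a SAP-domain chromatin protein, was not called lower at any stage. Its signal was 325.9 and 302.0 on the E11.5 arrays, 547.7 and 344.0 on those of E12.5, 862.4 and 973.3 on those of E14.5, 1091.4 and 712.2 on those of E16.5 and 563.3 and 427.9 on those of E18.5. The E14.5 and E16.5 arrays lay above all 4 early arrays, and the E18.5 arrays overlapped those of E12.5. Dppa4 rose 2.42-fold over the early mean at E14.5 (adjusted p = 0.00116) and 2.33-fold at E16.5 (adjusted p = 0.000568). At E18.5 it was at 130% ± 25.2 of the early mean (SD, n = 2), a log2 change of 0.40 with a 95% interval of -0.05 to 0.85 (adjusted p = 0.166). Its difference from E16.5 was -0.82 on the log2 scale (95% interval -1.34 to -0.31, adjusted p = 0.51).

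Utf1, a chromatin-bound cofactor of the stem cell network, was not called lower before E18.5. The arrays gave signals of 284.8 and 373.0 on the E11.5 arrays, 390.6 and 390.7 on those of E12.5, 284.8 and 382.4 on those of E14.5, 301.6 and 354.8 on those of E16.5 and 176.6 and 108.4 on those of E18.5. The first 4 stages overlapped or lay close together, and both E18.5 arrays lay below all the others. At E16.5 Utf1 was at 91.2% ± 10.5 of its early mean (SD, n = 2), and the log2 change was -0.12 with a 95% interval of -0.54 to 0.30. At E18.5 it was at 39.6% ± 13.4 (SD, n = 2), a fall of 2.41-fold (adjusted p = 0.000241). Against E16.5 the E18.5 log2 change was -1.15 (95% interval -1.63 to -0.67, adjusted p = 0.155).

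Utf1 was the 1 gene of the 8 with more than 1 probe set, and the late fall rested on the brightest. The other probe sets gave signals of 14.3 to 76.5 and of 12.3 to 50.5 over the 10 arrays, much of it under the filter signal. With the mean of the 3 probe sets the E18.5 change from the early mean was -0.40 on the log2 scale (adjusted p = 0.16).

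**Figure D2:**
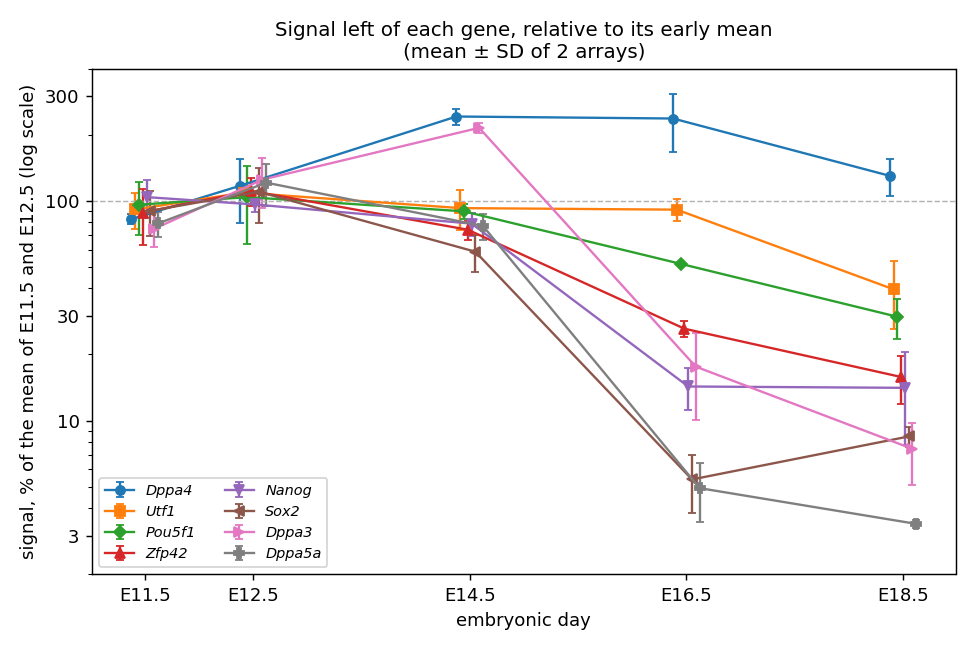
Mean signal of each gene as a percentage of its own mean over the 4 arrays of E11.5 and E12.5 (vertical axis, log scale) against embryonic day, with bars of 1 SD (n = 2 arrays). At E16.5 the genes spread from 4.93% for Dppa5a to 237% for Dppa4, with Pou5f1 at 51.7% and Utf1 at 91.2%.

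Taken step by step, 5 of the 6 calls of the 8 genes lay between E14.5 and E16.5. In E12.5 against E11.5 none of the 8 was called by limma, where 3.27% of tested genes were. Dppa3 and Dppa5a, 2 of the 8, had an unadjusted p under 0.05. The share of all tested genes under that unadjusted cut was not counted in any step. The percentages given beside are of adjusted calls and are not its background. In E14.5 against E12.5, 1 was called, the 2.07-fold rise of Dppa4 (adjusted p = 0.0239), where 3.53% of tested genes were called higher. An unadjusted p under 0.05 was found for 5 of the 8 in that step, with a positive log2 change for Dppa3 and Dppa4 and a negative one for Sox2, Dppa5a and Zfp42. That call was lost without E12.5 replicate 2 (adjusted p = 0.149), without E14.5 replicate 1 (0.108) or replicate 2 (0.0838), and without the filter on signal (0.0503).

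In E16.5 against E14.5, 5 of the 8 fell, where 3.12% of tested genes were called lower: Nanog, Sox2, Dppa3, Dppa5a and Zfp42. None of the 8 rose in that step. The median log2 change of the 8 genes was -1.44, and that of all tested genes 0.05. In E18.5 against E16.5 none of the 8 was called, and the same comparison called 0.0183% of tested genes, that is, 2 of 10916. An unadjusted p under 0.05 was found for 4 of the 8 (Pou5f1, Dppa3, Dppa4 and Utf1), again with no share of all tested genes counted. Each had a negative log2 change, and the median log2 change of the 8 was -0.58. The 95% interval of that change was -1.61 to -0.46 for Dppa3 and -1.22 to -0.16 for Pou5f1.

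**Figure D3:**
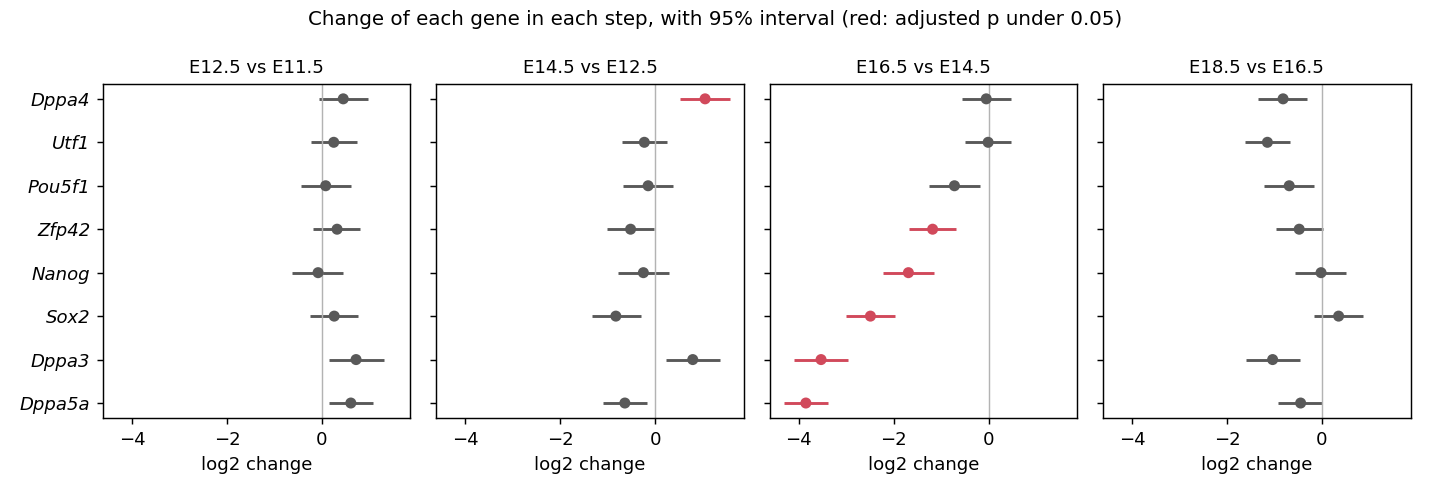
Log2 change of each gene in each successive step (later stage minus earlier stage, on the log2(signal + 16) scale) with 95% intervals. The step from E14.5 to E16.5 holds the largest falls, from -1.18 for Zfp42 to -3.85 for Dppa5a among the genes called.

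The fall of each gene was compared with that of Pou5f1 on the same arrays, to ask which transcripts were lost faster or slower. The other pairs of genes were not tested. Over 4 comparisons and 7 genes, 14 of 28 differences from Pou5f1 were called. All tested genes were called at shares of 3.34% to 96.4% in these comparisons, so the count alone does not set the 7 genes apart. Since every gene carries the same Pou5f1 values, limma pooled the variances of all genes fully here and its p-values are too small. Adjusted p-values without that pooling are therefore given as well, and 8 of the 28 were called with them. The shares of all tested genes called were then 0% to 93%.

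At E18.5 against the early mean, the log2 change minus that of Pou5f1 was -3.13 for Dppa5a (95% interval -3.74 to -2.51), -1.90 for Dppa3 and -1.32 for Sox2. The adjusted p without pooling was 0.0045 for Dppa5a, 0.00524 for Dppa3 and 0.0133 for Sox2. Dppa4 stood above Pou5f1 by 1.91 (95% interval 1.28 to 2.55, adjusted p without pooling 0.00467). The differences of Nanog (-0.48, 95% interval -1.27 to 0.31), Zfp42 (-0.51, -1.27 to 0.26) and Utf1 (0.25, -0.42 to 0.92) were not called, and without pooling the intervals were -1.38 to 0.42 for Nanog, -1.64 to 0.62 for Zfp42 and -0.64 to 1.14 for Utf1, which leave room for differences of over 1 log2 unit in each. With the mean of its 3 probe sets, Utf1 stood above Pou5f1 by 1.12 and was called (adjusted p = 0.00343 with pooling). Zfp42 was called with a pseudocount of 1, at -0.89 (adjusted p = 0.048 with pooling), and in 1 fit with an array left out. With pooling, Dppa5a, Dppa3, Sox2 and Dppa4 were the 4 of the 7 called, where 96.4% of all tested genes were called different from Pou5f1. The same 4 were called without pooling, where 93% of tested genes were.

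At E16.5 the same 4 genes differed from Pou5f1 with and without pooling, where 60.4% of tested genes were called with it and 26.5% without it. The difference was -3.36 for Dppa5a (adjusted p without pooling 0.0111), -2.35 for Sox2 (0.0206), -1.55 for Dppa3 (0.025) and 2.05 for Dppa4 (0.0152). The Dppa3 call with pooling was lost without E16.5 replicate 2 (adjusted p = 0.0599). Nanog differed by -1.15, which was called with pooling (adjusted p = 0.011) and not without it (0.0614), nor without E16.5 replicate 1 (0.0845) or replicate 2 (0.152), nor with a pseudocount of 64 (0.163). Utf1 stood above Pou5f1 by 0.71 (adjusted p = 0.0584), and was called without E11.5 replicate 2 (0.0168) and when E12.5 replicate 2 was left out (0.00514). Zfp42 differed by -0.72 (adjusted p = 0.0937). It was called with a pseudocount of 1, at -0.98 (adjusted p = 0.0496 with pooling). Leaving out E11.5 replicate 1 or E12.5 replicate 1 also led to a call.

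For the step from E14.5 to E16.5 alone, 29.4% of tested genes were called different from Pou5f1 with pooling and 0% (0 of 10915) without it. Sox2 differed by -1.77, Dppa3 by -2.81 and Dppa5a by -3.14, and their adjusted p without pooling was 0.109, 0.0992 and 0.0992. With pooling the Sox2 call was lost without E14.5 replicate 2 (0.0661) or E16.5 replicate 2 (0.133), and Nanog, at -0.97, was called without E12.5 replicate 1 (0.0349) or replicate 2 (0.036). At E14.5 against the early mean, 3.34% were called with pooling and 0.0733% without it. Sox2 differed from Pou5f1 there by -0.58 and was not called (adjusted p = 0.698 with pooling and 0.808 without it). Dppa3 stood above Pou5f1 by 1.26 and Dppa4 by 1.39, and both were called with pooling. Both calls were lost without pooling (0.277 for Dppa3 and 0.165 for Dppa4). With pooling they were lost without E14.5 replicate 1 (0.416 for Dppa3 and 0.173 for Dppa4) and without replicate 2 (0.257 for Dppa3 and 0.159 for Dppa4).

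All 5 germ cell markers with a probe set, Ddx4, Dazl, Mael, Dnd1 and Kit, still gave signal at the stages when these transcripts were low, and they did not move alike. Against the early mean, Ddx4, Dazl, Mael and Dnd1 rose at E16.5 and Kit fell, where 21% of tested genes were called higher and 13.5% lower. At E18.5 Ddx4, Dazl and Mael were higher, Kit was lower and Dnd1 was not called. The shares of tested genes at E18.5 were 19.2% higher and 13.7% lower. The early mean joins 2 unlike stages for some markers. From E11.5 to E12.5 Dazl rose 4.83-fold (adjusted p = 9.37e-05), Ddx4 3.14-fold (0.00234) and Mael 2.55-fold (0.00747). In E16.5 against E12.5 alone, Ddx4, Mael and Dnd1 rose and Kit fell, where 16.8% of tested genes were called higher and 10.2% lower. Dazl was not called there (log2 change 0.20, adjusted p = 0.576). Ddx4, an RNA helicase of germ cells, had a signal of 298% ± 68.3 of its early mean by E14.5, 385% ± 62.1 by E16.5 and 272% ± 56.0 by E18.5 (SD, n = 2 each). Dazl, an RNA-binding protein needed for germ cell development, stood at 312% ± 31.7 of its early mean by E14.5, 192% ± 29.5 by E16.5 and 217% ± 15.6 by E18.5 (SD, n = 2 each). Dnd1, which protects germ cells from death, was at 137% ± 51.9 by E14.5, 200% ± 17.0 by E16.5 and 92.5% ± 24.1 by E18.5 (SD, n = 2 each). Kit, the receptor of stem cell factor and also a listed gene of the network, was at 60% ± 6.02 by E14.5, 59.2% ± 4.98 by E16.5 and 49.7% ± 4.29 by E18.5 (SD, n = 2 each).

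In E16.5 against E14.5 only Mael, a piRNA pathway protein, was called among these markers, with a log2 change of 1.22 (adjusted p = 0.00867). The log2 change was 0.37 for Ddx4 (adjusted p = 0.37), -0.69 for Dazl (0.0771), 0.56 for Dnd1 (0.143) and -0.02 for Kit (0.969). The summed signal of the 5 markers was 3599 to 4416 at E16.5, against 2800 to 3619 at E14.5. Without Mael the other 4 summed to 2053 to 2425 at E16.5, against 2170 to 2746 at E14.5, so the higher sum rested on Mael.

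Among 18 male germ cell genes, many of them parts of the piRNA pathway that silences transposons, 15 had a probe set and 13 were tested. In E16.5 against E14.5, 5 rose and 1 fell (Rnf17, log2 change -0.95), where 7.7% of tested genes were called higher and 3.12% lower. Tdrd9, a helicase of the piRNA pathway, rose 9.16-fold (adjusted p = 8.99e-07), with 606.5 and 576.9 at E16.5 and 56.4 and 44.7 at E14.5. Piwil4 (MIWI2), the nuclear PIWI protein of fetal germ cells, rose 3.98-fold (adjusted p = 0.000809). Dnmt3l, a cofactor of de novo DNA methylation, rose 4.92-fold (adjusted p = 0.000933), and Piwil2 rose 2.88-fold (adjusted p = 0.000173). The median log2 change of the 13 was 0.56 in this step. The list's summed signal was 7393 to 9124 at E16.5, against 5212 to 6074 at E14.5, while that of the 8 pluripotency genes was 1478 to 1981 at E16.5, against 5699 to 6601 at E14.5. Such sums follow their brightest genes. Most of the sum of the 8 genes at E14.5 was Dppa5a (2232.2 and 2703.5) and Dppa3 (1814.1 and 1942.5). At E16.5 its largest part was Dppa4 (1091.4 and 712.2). Against the early mean, 12 of the 13 rose at E16.5, where 21% of tested genes were called higher. At E18.5, 10 of the 13 rose, where 19.2% were called higher. None of the 13 fell at either stage. From E11.5 to E12.5, 6 of the 13 rose and 1 fell, where 3.27% of tested genes were called in either direction. In E16.5 against E12.5 alone, 10 of the 13 rose, where 16.8% of tested genes were called higher.

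Other genes of the pluripotency network moved less uniformly. Of 35 listed, 32 had a probe set and 22 were tested. In E16.5 against E14.5, 6 fell (L1td1, Lin28a, Gdf3, Tcl1, Nodal and Lefty1) and 1 rose, where 3.12% of tested genes were called lower and 7.7% higher, and the median log2 change of the 22 was -0.26. L1td1, an RNA-binding protein of stem cells, fell 2.26-fold (adjusted p = 0.00192). Lin28a, which blocks maturation of let-7 miRNAs, fell 2.40-fold (adjusted p = 0.00594) and Gdf3, a TGF-beta family ligand, fell 2.37-fold (adjusted p = 0.00867). The gene that rose was Klf4, a zinc finger factor that is also made in somatic cells, by 2.43-fold (adjusted p = 0.00387). The Lin28a call was lost without E16.5 replicate 1 (adjusted p = 0.0557), that of Gdf3 without E14.5 replicate 1 (0.0706) or E16.5 replicate 2 (0.0922), and that of Klf4 without E16.5 replicate 2 (0.0811).

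Against the early mean, 3 of the 22 had fallen at E14.5 (L1td1, Nr0b1 and Kit) and 1 had risen (Alpl), where 5.63% of tested genes were called lower and 8.72% higher. L1td1 had a signal of 81.8 and 95.5 at E14.5, against 195.4 and 220.3 at E11.5 and 311.9 and 289.5 at E12.5, a fall of 2.55-fold (adjusted p = 7.93e-05). It was thus called lower at the same stage as Sox2. Kit, at -0.64 on the log2 scale (adjusted p = 0.0197), lost its call without E12.5 replicate 1 (0.0753) and when E14.5 replicate 1 was left out (0.175). At E16.5, 9 of the 22 had fallen and 2 had risen, where 13.5% of tested genes were called lower and 21% higher. At E18.5, 8 had fallen and 3 had risen (Alpl, Klf2 and Klf4), where 13.7% were called lower and 19.2% higher, with falls of 6.58-fold for L1td1 (adjusted p = 3.02e-08), 2.23-fold for Lin28a (adjusted p = 0.000927) and 1.89-fold for Tcl1, a co-activator of AKT (adjusted p = 0.00108). The tissue alkaline phosphatase Alpl, a classical stain for primordial germ cells that is also made elsewhere, rose 1.68-fold at E14.5 (adjusted p = 0.00288).

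**Figure D4:**
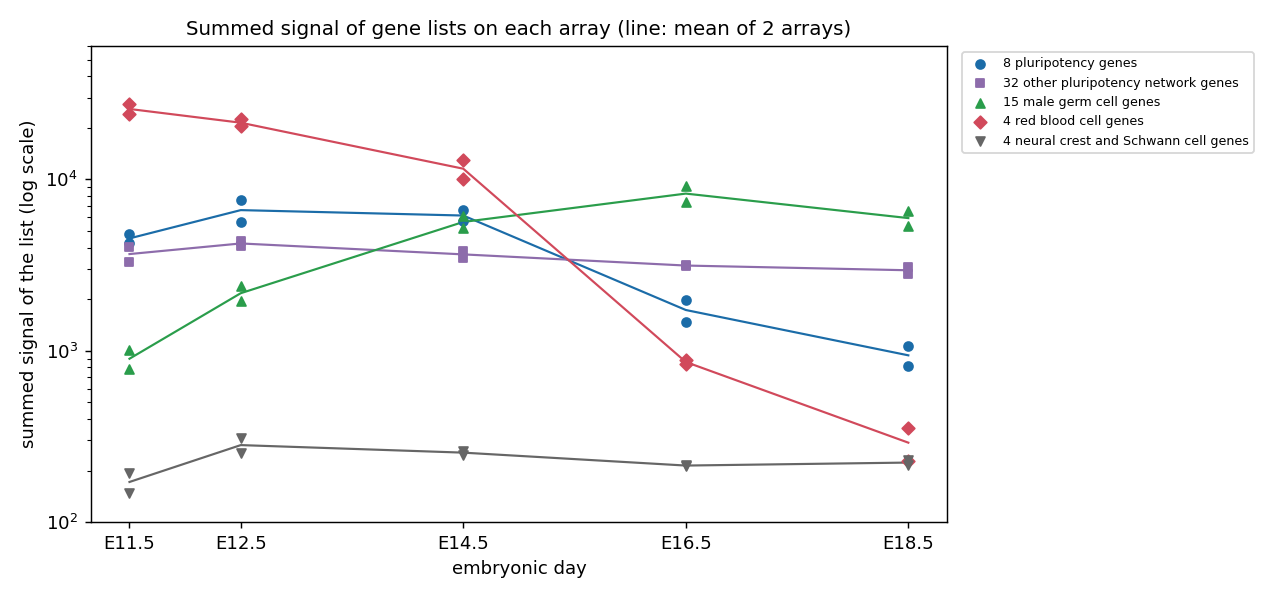
Summed signal of 5 gene lists on each array (vertical axis, log scale) against embryonic day, with a point per array and a line through the stage means. The sums of the 8 pluripotency genes and of the 4 red blood cell genes drop between E14.5 and E16.5, and that of the 15 male germ cell genes rises. Up to E14.5 these 2 falling sums are mostly Dppa5a and Dppa3, and embryonic globins. The sum of the 32 other network genes stays between 2805 and 4390 on all arrays. Single genes in it moved, with 9 of 22 tested called lower and 2 higher at E16.5 than the early mean.

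Markers of other cells were followed beside these results, since the preparations are mixtures. Of 5 red blood cell markers, 4 had a probe set, and their summed signal was 226.9 to 355.4 at E18.5 and 837.2 to 883.5 at E16.5, against 10070 to 13000 at E14.5 and 20420 to 27540 at the early stages. Of these the 3 embryonic globins Hbb-y, Hbb-bh1 and Hba-x fell in E16.5 against E14.5, while Alas2, the haem synthesis enzyme of red cells, rose 2.47-fold (adjusted p = 0.00142). Up to E14.5 nearly all of the sum came from the 3 globins, so it does not measure red cells in general. The part of red cells in the fall of the pluripotency genes was not tested. Of 4 mesonephros markers, 3 had a probe set, and their summed signal was 196.1 to 213.2 at E16.5, against 411.2 to 543.2 at E14.5. Most of that sum was Emx2, with 156.2 and 132.8 at E16.5, against 315.4 and 441.8 at E14.5, and it was called lower. Pax8, the other marker tested, was not called in that step (log2 change -0.11, adjusted p = 0.81). Lhx1 was too dim to be tested and had 1.2 and 11.1 at E16.5, against 38.3 and 40.1 at E14.5. The part of this was not tested either. No marker on the lists was at 0 on any array, but signals as low as that of Lhx1 do not show that a transcript was made.

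SOX2 is also made by neural crest and Schwann cells, and 4 of 7 markers of these had a probe set. Their summed signal was 213.2 to 215.0 at E16.5, against 247.4 to 261.9 at E14.5. Sox10 and Erbb3, the 2 that were tested, were not called in that step, with a log2 change of -0.19 for Sox10 (adjusted p = 0.662) and -0.46 for Erbb3 (adjusted p = 0.112). In E16.5 against E12.5, Erbb3 fell by 0.79 on the log2 scale (adjusted p = 0.00522) and Sox10 was not called (adjusted p = 0.73). S100b had 25.1 and 48.4 at E16.5, against 28.5 and 15.7 at E14.5, and Foxd3 was dim throughout, at 3.0 to 25.8. The part of these cells in the fall of Sox2 was not tested. All 8 Sertoli cell markers and 4 of 5 fetal Leydig cell markers had a probe set. The summed signal of the Sertoli cell markers was 6905 to 8075 at E16.5, against 5760 to 6189 at E14.5, and that of the Leydig cell markers was 13060 to 13490 at E16.5, against 6360 to 7546 at E14.5.

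The arrays of a stage were scanned on the same day, and stages were spread over 3 days, with E12.5 and E16.5 on one and E11.5 and E18.5 on another. These pairs of stages allowed comparisons within a day. In E16.5 against E12.5, 6 of the 8 were lower and Dppa4 was higher, where 10.2% of tested genes were called lower and 16.8% higher. In E18.5 against E11.5, 7 were lower, where 11% of tested genes were. In E16.5 against E12.5, Sox2 fell 9.95-fold (adjusted p = 6.3e-07), Dppa5a 22.6-fold (adjusted p = 9.18e-09) and Nanog 3.83-fold (adjusted p = 9.56e-05). Pou5f1 fell 1.83-fold (adjusted p = 0.0185), and that call was lost without E12.5 replicate 1 (0.236) or E16.5 replicate 1 (0.0716) or replicate 2 (0.103). The Dppa4 rise (1.99-fold, adjusted p = 0.00821) was lost without E12.5 replicate 2 (0.092) or E16.5 replicate 1 (0.101). E14.5 was the only stage of its day, so the day and that stage cannot be told apart. The fluidics modules of E16.5 and E18.5 also differed from those of the first 3 stages, and this too cannot be told apart from stage.

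A measure of RNA integrity, the ratio of 3′ to 5′ signal of beta-actin, was 2.60 and 2.61 at E16.5, against 1.64 and 2.50 at E14.5 and 1.57 to 2.03 at the early stages. At E18.5 it was 1.87 for replicate 1 and 2.62 for replicate 2. The same ratio of Gapdh differed less, at 0.879 and 0.936 at E16.5 and 0.774 to 0.888 on the other arrays. The part of RNA integrity in the falls was not tested. The replicates of a stage correlated with r of 0.963 to 0.980 across tested genes, which are not independent of each other. The 2 arrays of E12.5 differed most for the 8 genes, with a median log2 difference of replicate 2 minus replicate 1 of -0.48.

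For each gene, the tested genes with the most similar profile over the 10 arrays were looked up, among those whose stage means spanned at least 1 log2 unit. These correlations describe the profiles only, since the arrays fall into 5 stages of 2. Nanog was most like Mtm1 (r = 0.982) and Cpne8 (r = 0.978), and Zfp42 most like Rnf150 (r = 0.983) and Mtm1 (r = 0.979). Cct6a, a subunit of the chaperonin CCT, was the closest to both Sox2 (r = 0.986) and Dppa5a (r = 0.991), with Tcl1 (r = 0.983) and Dnph1 (r = 0.982) next. Dppa3 was most like Zcchc12 (r = 0.989) and Cdo1 (r = 0.970), and Pou5f1 most like Rps4l (r = 0.959) and Hunk (r = 0.949).

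The genes outside the common pattern had other neighbours. Dppa4 was most like Asz1 (r = 0.941) and Tex14 (r = 0.935), both known from male germ cells. The mean signal of Asz1 was 96.0 ± 8.98 on the E11.5 arrays, 460 ± 48.9 on those of E14.5 and 204 ± 56.4 on those of E18.5 (SD, n = 2 each). Utf1 had the weakest likeness, with Vash2 (r = 0.864) and Cysrt1 (r = 0.849). The profile averaged over the 8 genes was closest to Man1a (r = 0.979), Cpsf4l (r = 0.976) and the embryonic globin Hbb-y (r = 0.974), followed by Six4, Kif26b, Zcchc12, Fgf9 and Lin28a, with r of 0.939 to 0.953. Of these only Lin28a is a listed gene of the network.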

How the data were processed

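Testis RNA of mouse embryos was measured at 5 stages on 10 arrays, 2 per stage, each from its own preparation, and p-values measure the spread between these. The authors deposited 1 linear intensity for each probe set on each array, with RNA extracted with Trizol and labelled with biotin per the labels' protocols. The software behind these values is not given in the sources used here. All arrays had been scaled to one level, since their trimmed mean signal lay between 124.7 and 125.0, and their medians, 35.2 to 57.7, still differed. The scanner reports deposited with them were read for the array type, scanning day and fluidics module, per the file headers. The number of arrays limits the precision.

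Of 45101 probe sets, 932 with several gene symbols named no gene. Symbols came from the platform annotation, updated through Entrez numbers in a RefSeq table of assembly GRCm38.p6. Each of 18193 genes was represented by its probe set with the highest mean log2(signal + 16). Genes under the 40th percentile of this mean were left out, which left 10916. A linear model with stage as a factor was fitted to all 10 arrays with limma 3.58.1 in R 4.3.3, using lmFit, contrasts for 9 comparisons, a moderated F test and eBayes with a trend (5 residual and 8.59 prior degrees of freedom). Two-sided p-values were adjusted by the Benjamini-Hochberg method across all genes in a comparison, with a threshold of 0.05. The same model was fitted to each gene's log2 value minus that of Pou5f1. The procedure was tested on simulated data. Figures were drawn with matplotlib 3.10.9 in Python 3.11.15, and promoter sequences are those of RefSeq, GRCm38.p6.

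The 8 genes, the gene lists and the tests were chosen with earlier results of these data known. The genes named were all 8, in each comparison up to 4 genes per list by smallest adjusted p, and for each gene the 2 with the highest correlation (8 for the mean profile). Nodal, Lefty1, Klf2, Rnf17, Tcl1 in E16.5 against E14.5, the single markers of germ cells and other cell types were named after their values were seen. Of 11 alternatives and 10 fits with an array left out, all were run, and 1 alternative, variances without moderation, was added after seeing the data. The main fit used no block for replicate number. The correlation of same-numbered deviations from the stage means was 0 to 0.37 over the 10 pairs of stages, and not all were over 0.1. It was highest for E16.5 with E18.5 (0.37) and E11.5 with E12.5 (0.36). Replicate 1 was on fluidics module 1 or 3 and replicate 2 on module 2 or 4, so some shared replicate effect is possible.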

Additional observations from a re-analysis of the deposited data

How the results depend on the processing

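Across the alternatives, 1489 of 1548 log2 changes of the 8 genes kept their sign and their side of the threshold, 29 lost a call, 14 gained one and 16, none of them called, changed sign. The number of the 8 called in E14.5 against E12.5 was 1, and it was 2 with a pseudocount of 64, with quantile normalization, with array medians set to one level, with a replicate block and with only the arrays of the comparison. It was 0 with no filter on low values and with variances not moderated, and 0 to 2 with an array left out. With the filter at the 60th percentile only 5 of the 8 were tested, and calls numbered 5 in the F test, 2 in E16.5 against E14.5 and 4 each in E16.5 and E18.5 against the early mean, in E16.5 against E12.5 and in E18.5 against E11.5. With a pseudocount of 1, Nanog fell under the filter and 7 were tested. Variances not moderated gave 5 calls in the F test, 0 in E14.5 against the early mean and 8 of 28 differences from Pou5f1, where moderation gave 8, 3 and 14. The replicate block called 1 of the 8 in E12.5 against E11.5, Dppa3 (adjusted p = 0.0475), where none was called without it. Whether the replicate numbers pair the arrays was not settled. Changes of sign came with a pseudocount of 64 for Nanog minus Pou5f1 at E18.5 against the early mean (0.02), with quantile normalization for Dppa5a minus Pou5f1 at E14.5 against the early mean (0.12), and with the mean of probe sets for Utf1 in E14.5 against E12.5 (0.07) and against the early mean (0.18). With an array left out, log2 changes that crossed 0 ran from -0.30 to 0.47 (Pou5f1), -0.26 to 0.10 (Nanog) and -0.01 to 0.53 (Sox2) in E12.5 against E11.5. They ran from -0.54 to 0.23 for Pou5f1 in E14.5 against E12.5, from -0.36 to 0.25 (Dppa4) and -0.22 to 0.19 (Utf1) in E16.5 against E14.5, and from -0.25 to 0.20 for Nanog in E18.5 against E16.5. At E14.5 against the early mean they ran from -0.30 to 0.08 (Pou5f1), -0.31 to 0.10 (Utf1), -0.40 to 0.04 (Nanog minus Pou5f1) and -0.52 to 0.01 (Zfp42 minus Pou5f1). Over all tested genes, calls ranged over the alternatives from 149 to 1783 in E16.5 against E14.5 (1181 as reported) and from 0 to 13 in E18.5 against E16.5 (2 as reported). Apart from the genes that a stricter filter removes, the cause of these changes was not tested. Low signal limits the late values of Nanog, Sox2 and Zfp42.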

Other observations

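Several genes of the pluripotency network were too dim to be tested, and their signals are given as values. Prdm14, a regulator of primordial germ cell fate, had signals of 31.2 and 50.5 on the E11.5 arrays, 68.8 and 50.6 on those of E12.5, 52.3 and 56.7 on those of E14.5, 9.1 and 20.4 on those of E16.5 and 6.1 and 2.4 on those of E18.5. Dppa2, the partner of DPPA4 in a chromatin complex, had 48.7 and 81.5 on the E11.5 arrays, 83.0 and 79.5 on those of E12.5, 49.0 and 61.9 on those of E14.5, 25.9 and 24.7 on those of E16.5 and 18.0 and 28.3 on those of E18.5. Both late pairs of each gene lay below all earlier arrays. Tfap2c, a germ cell specification factor, was already low at E14.5, with 29.8 and 39.8, against 79.2 and 114.6 at E11.5 and 110.3 and 76.6 at E12.5. These genes were picked after their values were seen, and no test was made.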
